A study of Mus musculus with 12 samples.

Results

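Skeletal muscle genes were followed across MC38 tumours, grown from a colon cancer line of the mouse, in hosts given Salmonella or phosphate-buffered saline (PBS). The 36 genes were picked by symbol as genes of the muscle fibre, and all 36 were among the genes listed for each library, which numbered 18609. They comprise 7 genes of the thick filament, 8 of the thin filament, 10 of the Z disc, titin and the M band, 5 of calcium handling and 6 of energy supply. RNA from whole tumours was sequenced in 12 libraries, in 4 groups of 3. Hosts were wild-type C57BL/6 mice or mice with a TLR4 deletion, here called knockout, and each genotype received either PBS or Salmonella by intravenous injection, with tumours taken after 1 day. All 4 groups carried the same MC38 tumour. In each group the titles end in F-1, M-1 or M-2, letters that the labels do not explain. No label states that the 3 came from different mice, and a p-value here weighs a difference only against the spread among these libraries, part or all of which may be technical. The labels give neither the Salmonella strain nor the site of the tumour.

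A muscle fibre contracts when thick filaments of myosin slide along thin filaments of actin, within sarcomeres that are bordered by Z discs and held by titin. Calcium released from the sarcoplasmic reticulum binds troponin on the thin filament and permits the movement, and creatine kinase, glycolysis and mitochondria supply the ATP. Fast and slow fibres use different genes for the same parts. Among fast fibres, type 2A, 2X and 2B carry the myosin heavy chains Myh2, Myh1 and Myh4. Most of these genes are little used by epithelial cells. In a bulk sample such as a whole tumour, more muscle cells and more of a transcript per cell cannot be told apart.

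The libraries held 30508678 to 38758885 fragments on the listed genes, and values are FPKM, fragments scaled to gene length and to the library's total. At these depths 3 fragments in a gene of 1 kb, the limit that a count of 0 allows, come to 0.0774 to 0.0983 FPKM, which covers counting error only. F-1 and M-1 of the wild-type Salmonella group stood apart from the other 10 libraries in composition: their scaling factors were 0.851 and 0.853, against 0.997 to 1.048 elsewhere. Tlr4, the deleted gene of the knockout hosts, measured 2.48 to 3.78 FPKM in wild-type hosts, 1.59 to 3.15 FPKM in knockout hosts under PBS and 1.73 to 1.96 FPKM in knockout hosts under Salmonella. The tumour cells are a separate line with a Tlr4 gene of their own, so this level does not check the hosts' labels. Of 7 epithelial markers for the labelled colon cancer cells, 0 reached the filter used for testing, and their summed level was 0.912 to 2.78 FPKM over the 12 libraries. Epcam and Krt18, which define epithelial cells, were at 0 in 2 and 7 libraries.

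The 250 bases before the RefSeq start site (GRCm38.p6) are shown for the 4 members with the largest called rise that have an entry, and for the myosin genes Myh1 and Myh4, whose shares of the myosin reads are compared further on. Capitals mark the letters CAGCTG, a form of E-box, the site of the muscle factor MyoD, and the CArG box, the site of serum response factor.
Acta1: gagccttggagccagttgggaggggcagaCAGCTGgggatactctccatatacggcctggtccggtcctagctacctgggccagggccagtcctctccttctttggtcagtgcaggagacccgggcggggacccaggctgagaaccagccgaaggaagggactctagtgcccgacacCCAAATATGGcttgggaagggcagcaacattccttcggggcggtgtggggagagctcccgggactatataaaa
Mylpf: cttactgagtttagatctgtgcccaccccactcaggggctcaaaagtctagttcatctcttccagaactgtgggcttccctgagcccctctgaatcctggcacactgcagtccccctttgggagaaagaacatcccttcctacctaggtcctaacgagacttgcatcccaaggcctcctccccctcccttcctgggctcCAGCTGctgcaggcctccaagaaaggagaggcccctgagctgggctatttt
Tnnc2: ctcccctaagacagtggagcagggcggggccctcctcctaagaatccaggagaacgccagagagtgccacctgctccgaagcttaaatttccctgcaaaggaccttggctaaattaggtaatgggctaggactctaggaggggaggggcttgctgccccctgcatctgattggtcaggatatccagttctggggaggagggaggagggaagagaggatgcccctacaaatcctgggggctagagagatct
Des: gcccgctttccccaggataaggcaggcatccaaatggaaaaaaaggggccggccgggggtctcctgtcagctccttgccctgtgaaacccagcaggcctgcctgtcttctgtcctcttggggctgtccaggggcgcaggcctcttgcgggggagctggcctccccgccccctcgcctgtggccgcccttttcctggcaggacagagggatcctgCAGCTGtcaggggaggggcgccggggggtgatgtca
Myh1: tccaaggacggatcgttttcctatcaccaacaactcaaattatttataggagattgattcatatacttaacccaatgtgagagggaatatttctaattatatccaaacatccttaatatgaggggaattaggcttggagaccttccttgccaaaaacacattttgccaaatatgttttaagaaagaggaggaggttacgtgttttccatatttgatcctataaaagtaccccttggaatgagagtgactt
Myh4: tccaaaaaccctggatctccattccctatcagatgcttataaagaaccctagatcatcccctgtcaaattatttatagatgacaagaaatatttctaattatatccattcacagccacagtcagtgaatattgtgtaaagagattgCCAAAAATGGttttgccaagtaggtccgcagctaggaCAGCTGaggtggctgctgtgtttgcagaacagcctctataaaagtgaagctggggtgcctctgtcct

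These stretches lie at chr8:123894776-123895025 on the minus strand (Acta1), chr7:127211358-127211607 on the plus strand (Mylpf), chr2:164779735-164779984 on the minus strand (Tnnc2), chr1:75360042-75360291 on the plus strand (Des), chr11:67199852-67200101 on the plus strand (Myh1) and chr11:67237562-67237811 on the plus strand (Myh4). Counted back from the start site, the CArG box of Acta1 lay at -73 to -64 and that of Myh4 at -104 to -95, and the CAGCTG of Mylpf, Des and Myh4 lay at -51 to -46, -36 to -31 and -67 to -62. RefSeq entries matched 27 of the 36 members. Searched on both strands, CAGCTG was present in 13 of the 27 (48.1%) and in 12.8% of all 27025 promoters of that length. The CArG box was present in 3 of 27 (11.1%) against 1.4%, and the MEF2 site in 2 of 27 (7.41%) against 3.23%. The general E-box CANNTG, of which CAGCTG is one form, was present in 23 of 27 (85.2%) against 66.0%. A match is a description of letters only.

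Muscle genes were higher after Salmonella in wild-type hosts, across the contractile filaments, the Z disc and myoglobin. Of the 21 members tested, 15 rose and 0 fell, where 18.6% of all 12164 tested genes rose and 17% fell (limma, adjusted p under 0.05 over all tested genes). Skeletal actin Acta1 showed the largest called change, from 0.774 ± 0.615 to 35.6 ± 12.5 FPKM (SD, n = 3 each), and desmin Des went from 1.24 ± 0.165 to 9.97 ± 4.15 FPKM. The median log2 fold change of the 21 was 1.88, beside -0.01 over all tested genes. Tested genes needed at least 0.5 FPKM in at least 3 libraries, and 8 of the 21 would not have passed on the libraries of the other 3 groups: Myh1, Myl1, Mybpc1, Actn2, Tcap, Atp2a1, Mb and Pygm. These were tested only because wild-type Salmonella libraries were high, which favours a difference in any comparison with that group. Counts and medians that hold them therefore support nothing by themselves. They make up 6 of the 15 that rose. The 3 Salmonella libraries lay above the 3 PBS libraries for 18 of the 21 tested members and below them for 0, where 15.6% of all tested genes lay above and 29.8% below. Of the 15 members not tested, 11 lay above and 0 below. No share over the genes not tested was taken, so nothing is read from that count. Tnni1, Myom2, Pvalb, Cacna1s, Ckmt2, Pygm and Cox6a2 overlapped. Mylpf, Des, Mb, Tnnc1 and Eno3 were called with each library of either group left out. The count of members called fell to 6 of 16 tested without Salmonella F-1 and to 7 of 17 without Salmonella M-1. The share of all tested genes that rose fell as well, from 18.6% to 9.73% and 10.5%. Myh1, Mybpc1, Actn2 and Tcap missed the filter in these fits and could not be called. Without Salmonella F-1, 5 others were tested and lost their call: Myl1, Acta1, Tnnt3, Tnni2 and Tnnc2. Without Salmonella M-1 the same held for 4: Tnnt3, Tnni2, Tnnc2 and Tnnt1. Voom on the recovered fragments called 11 of the 21 higher, without Acta1, Myl1, Tnnt3 and Tnni2, and 2078 of all 12164 tested genes.

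**Figure D1:**
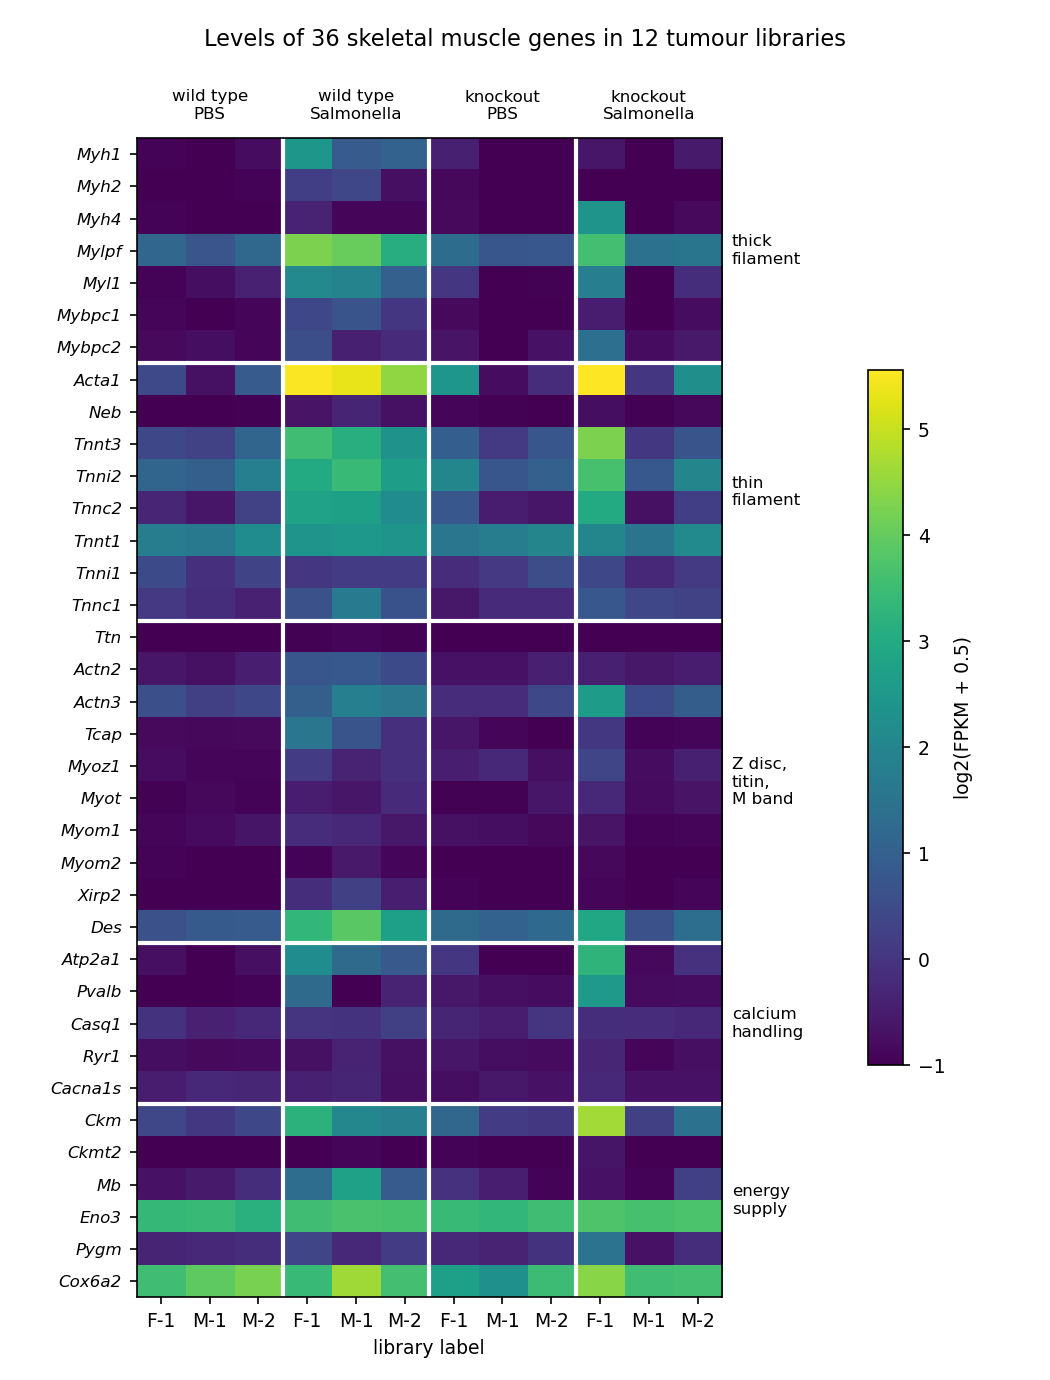
Level of each of the 36 members (rows, by role) in each of the 12 libraries (columns, by group), as log2(FPKM + 0.5) on a colour scale from -1 (a value of 0) upward. The 3 wild-type Salmonella libraries and knockout Salmonella F-1 are bright for most contractile genes, while Eno3 and Cox6a2 are bright in every library.

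Summed over the 36 members, wild-type PBS libraries held 35.6, 36.1 and 46.0 FPKM (F-1, M-1, M-2) and wild-type Salmonella libraries 163.1, 167.2 and 96.8 FPKM. Knockout PBS libraries held 40.4, 25.5 and 36.3 FPKM and knockout Salmonella libraries 203.4, 35.4 and 50.8 FPKM. All 3 wild-type Salmonella libraries were thus high, and of the knockout Salmonella libraries only F-1 was, at the highest sum of the 12. The ratio of the wild-type means was 3.63. Cox6a2 and Eno3 made up much of the sum in PBS libraries. Without these 2 genes, a choice made after seeing the values, the wild-type mean was 15.1 ± 3.99 FPKM under PBS and 115.2 ± 36.7 FPKM under Salmonella (SD, n = 3), a ratio of means of 7.64.

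**Figure D2:**
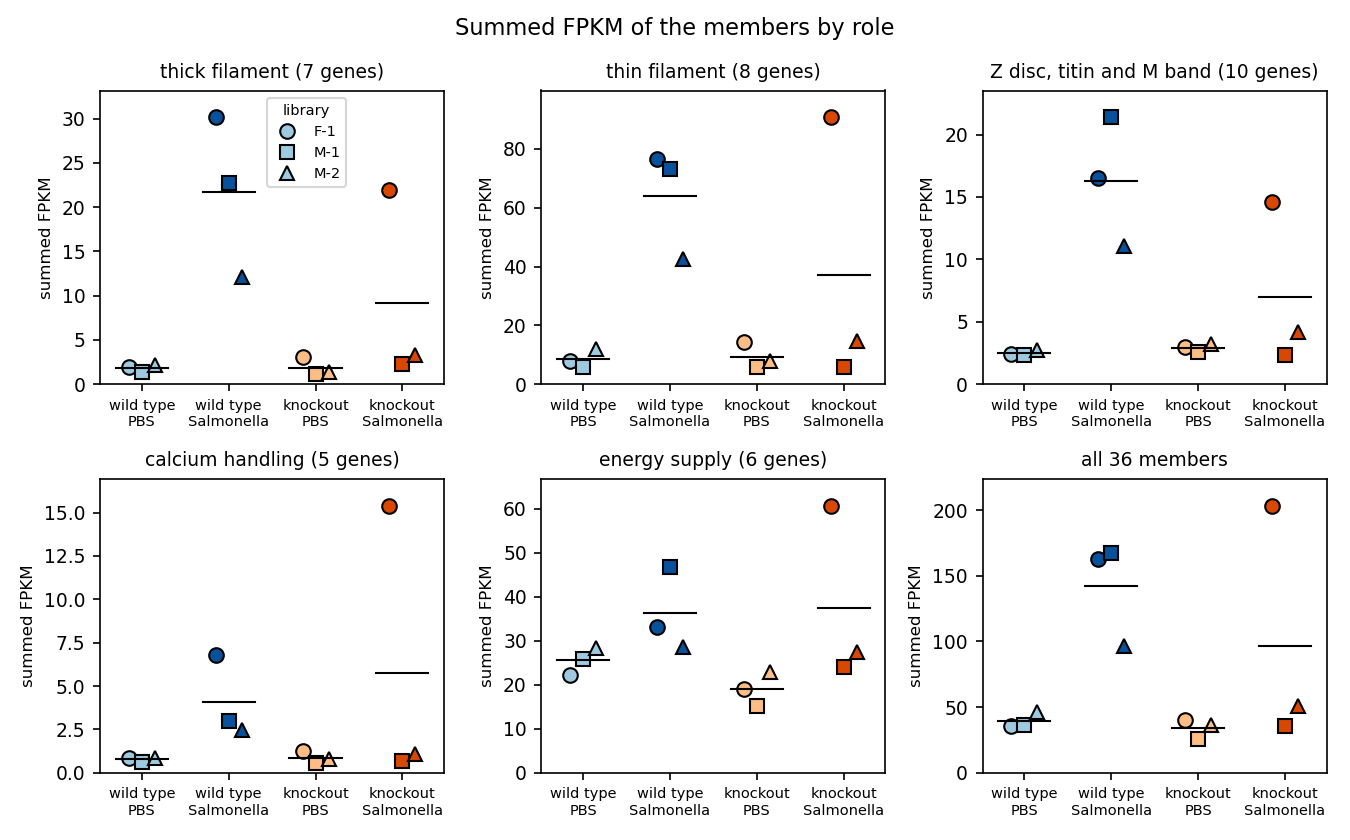
Summed FPKM of the members of each role and of all 36 in each library, with a circle, square and triangle for F-1, M-1 and M-2 and the group mean as a line. In knockout hosts under Salmonella the mean lies between a high F-1 and 2 low libraries in the filament panels.

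In the thick filament, all 4 tested members rose in wild-type hosts, of which 3 (Myh1, Myl1 and Mybpc1) passed the filter only through wild-type Salmonella. Mylpf, the fast regulatory light chain of myosin, measured 1.75, 1.15 and 1.77 FPKM in wild-type PBS F-1, M-1 and M-2, 18.6, 15.9 and 7.98 FPKM in wild-type Salmonella, 1.98, 1.19 and 1.22 FPKM in knockout PBS, and 11.7, 2.20 and 2.41 FPKM in knockout Salmonella. The wild-type groups did not overlap (log2 fold change 2.95, SE 0.55, limma adjusted p = 0.00452). In knockout hosts the Salmonella libraries also lay above the PBS libraries, narrowly for M-1 and M-2 (1.26, SE 0.55, adjusted p = 0.253). Myl1, the fast essential light chain, read 0.0197, 0.0877 and 0.258 FPKM in wild-type PBS, 3.72, 3.30 and 1.51 FPKM in wild-type Salmonella, 0.523, 0 and 0.0101 FPKM in knockout PBS, and 3.01, 0 and 0.399 FPKM in knockout Salmonella. It was called in wild-type hosts (2.51, SE 0.63, adjusted p = 0.0142), though not without wild-type Salmonella F-1 or with voom, and the knockout groups overlapped. Myh1, the heavy chain of type 2X fibres, read 0.0266, 0 and 0.0803 FPKM in wild-type PBS, 5.04, 1.33 and 1.59 FPKM in wild-type Salmonella, 0.240, 0 and 0 FPKM in knockout PBS, and 0.159, 0 and 0.197 FPKM in knockout Salmonella. High values were found in wild-type Salmonella libraries and in no other (2.49, SE 0.37, adjusted p = 0.0013). Mybpc1, the slow form of myosin-binding protein C, rose by 1.39 (SE 0.22, adjusted p = 0.00178), from at most 0.0451 FPKM to 0.519 to 1.12 FPKM.

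Thin filament genes rose in wild-type hosts with 1 exception among 7 tested. Acta1 measured 0.868, 0.118 and 1.34 FPKM in wild-type PBS, 45.1, 40.2 and 21.5 FPKM in wild-type Salmonella, 4.92, 0.0828 and 0.384 FPKM in knockout PBS, and 46.6, 0.525 and 4.28 FPKM in knockout Salmonella. The wild-type groups lay far apart (log2 fold change 5.06, SE 1.24, limma adjusted p = 0.013), while knockout Salmonella M-1 and M-2 were both below knockout PBS F-1. The call of Acta1 was lost without wild-type Salmonella F-1 and with voom. Tnni2, the fast inhibitory troponin, read 1.70, 1.5 and 3.05 FPKM in wild-type PBS, 7.50, 10.1 and 5.77 FPKM in wild-type Salmonella, 3.55, 1.19 and 1.52 FPKM in knockout PBS, and 12, 1.25 and 3.47 FPKM in knockout Salmonella. Tnnt3, the fast tropomyosin-binding troponin, read 0.846, 0.724 and 1.71 FPKM in wild-type PBS, 11.1, 8.16 and 4.68 FPKM in wild-type Salmonella, 1.45, 0.579 and 1.17 FPKM in knockout PBS, and 18.9, 0.552 and 1.13 FPKM in knockout Salmonella. Both fast troponins rose in wild-type hosts, close to the threshold (Tnni2 1.88, SE 0.63, adjusted p = 0.0405, and Tnnt3 2.56, SE 0.90, adjusted p = 0.0485), and in knockout hosts the high value was F-1. Both calls were lost when any 1 of the wild-type PBS libraries, Salmonella F-1 or Salmonella M-1 was left out. Tnnc2, the fast calcium-binding troponin, rose by 2.93 (SE 0.79, adjusted p = 0.0187). Its call was lost without F-1 or M-1 of either wild-type group. The slow troponins moved less: Tnnc1, which slow and cardiac fibres share, rose by 1.26 (SE 0.29, adjusted p = 0.00855) and Tnnt1 by 0.74 (SE 0.19, adjusted p = 0.0136). Tnni1, the slow inhibitory troponin, was at -0.03 (SE 0.23, adjusted p = 0.94), and its highest value of the 12, 0.972 FPKM, was in knockout PBS M-2. Summed over the 4 slow-fibre members, wild-type PBS libraries held 3.46 to 5.09 FPKM and wild-type Salmonella 6.93 to 9.51 FPKM. For the 14 fast-fibre members the corresponding sums were 4.68 to 8.97 FPKM and 31.3 to 62.8 FPKM. The ratio of fast to slow sums was 1.35 to 1.76 in wild-type PBS, 4.51 to 8.83 in wild-type Salmonella and 1.09 to 3.48 in knockout PBS. In knockout Salmonella F-1, M-1 and M-2 it was 14.1, 1.61 and 2.08. Most of the slow sum was Tnnt1, at 2.35 to 5.12 FPKM, also in libraries with no fragment of Myh1, Myh2 or Myh4. The ratio therefore does not measure fibre type.

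At the Z disc, 3 of 4 tested members rose in wild-type hosts, of which Actn2 and Tcap passed the filter only through wild-type Salmonella. Des, the intermediate filament protein of muscle, measured 1.05, 1.32 and 1.35 FPKM in wild-type PBS, 9.71, 14.2 and 5.96 FPKM in wild-type Salmonella, 1.89, 1.58 and 1.84 FPKM in knockout PBS, and 6.94, 1.03 and 2.09 FPKM in knockout Salmonella. It rose in wild-type hosts (log2 fold change 2.69, SE 0.51, limma adjusted p = 0.00467), and knockout Salmonella M-1 was below every knockout PBS library. Smooth muscle also makes desmin. Of 12 smooth muscle and pericyte markers 8 were tested, and 2 rose and 4 fell in wild-type hosts, where 18.6% and 17% of all tested genes did. Those that rose were Tagln, an actin-binding protein of smooth muscle (1.98, SE 0.42, adjusted p = 0.00688), and Mcam (0.79, SE 0.18, adjusted p = 0.00888). Tagln was 2.43 to 5.15 FPKM in wild-type PBS and 9.60 to 23.7 FPKM in wild-type Salmonella, and its part in the desmin values was not tested. Actn3, the α-actinin of fast fibres, read 1.03, 0.687 and 0.849 FPKM in wild-type PBS, 1.48, 3.06 and 2.52 FPKM in wild-type Salmonella, 0.398, 0.397 and 0.836 FPKM in knockout PBS, and 5.53, 0.893 and 1.41 FPKM in knockout Salmonella. Although Salmonella libraries were higher in both genotypes, Actn3 passed in neither (1.19, SE 0.46, adjusted p = 0.0649 in wild-type hosts, and 1.31, SE 0.46, adjusted p = 0.171 in knockout hosts). Tcap, the titin cap, read 0.0564, 0.0558 and 0.0568 FPKM in wild-type PBS, 2.49, 1.14 and 0.418 FPKM in wild-type Salmonella, 0.159, 0.0274 and 0 FPKM in knockout PBS, and 0.536, 0.0272 and 0.0285 FPKM in knockout Salmonella. It rose in wild-type hosts (1.69, SE 0.40, adjusted p = 0.00976), with F-1 the high library of both Salmonella groups. Actn2, the α-actinin of all fibre types, rose by 1.38 (SE 0.18, adjusted p = 0.000805), from 0.116 to 0.237 FPKM in wild-type PBS to 0.893 to 1.25 FPKM in wild-type Salmonella.

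Of the calcium-handling genes, only Atp2a1, the calcium pump of the fast-fibre reticulum, reached the filter. It measured 0.101, 0 and 0.102 FPKM in wild-type PBS, 4.04, 1.92 and 1.28 FPKM in wild-type Salmonella, 0.527, 0 and 0.00798 FPKM in knockout PBS, and 9.14, 0.0525 and 0.448 FPKM in knockout Salmonella. The wild-type groups did not overlap, but the spread between libraries was large and the difference did not pass (log2 fold change 2.38, SE 0.88, limma adjusted p = 0.0574). Pvalb, the calcium buffer parvalbumin, read 0, 0 and 0.0258 FPKM in wild-type PBS, 1.89, 0 and 0.279 FPKM in wild-type Salmonella, 0.174, 0.0998 and 0.0789 FPKM in knockout PBS, and 5.20, 0.0742 and 0.0777 FPKM in knockout Salmonella. High parvalbumin was thus a property of F-1 in each Salmonella group, with 66 and 203 fragments, and wild-type Salmonella M-1, rich in other members, had 0. Casq1, the calcium store protein calsequestrin, was at 0.471, 0.254 and 0.331 FPKM in wild-type PBS, 0.494, 0.472 and 0.691 FPKM in wild-type Salmonella, 0.306, 0.208 and 0.498 FPKM in knockout PBS, and 0.413, 0.385 and 0.346 FPKM in knockout Salmonella. Ryr1, the calcium release channel, and Cacna1s, its voltage sensor, stayed at or below 0.339 FPKM in every library. The wild-type groups did not overlap for Ryr1 (36 to 53 fragments under PBS, 60 to 126 under Salmonella) and overlapped for Cacna1s.

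Energy supply genes split into ones that followed the filaments and ones present in every tumour. Ckm, the muscle creatine kinase, measured 0.812, 0.542 and 0.838 FPKM in wild-type PBS, 8.77, 3.64 and 3.14 FPKM in wild-type Salmonella, 1.75, 0.625 and 0.543 FPKM in knockout PBS, and 24.4, 0.693 and 2.23 FPKM in knockout Salmonella. Its wild-type difference did not pass (log2 fold change 2.25, SE 0.91, limma adjusted p = 0.0776), and knockout Salmonella F-1 was the highest library. Cox6a2, the muscle form of a cytochrome c oxidase subunit, read 11.2, 14.6 and 18.3 FPKM in wild-type PBS, 10.2, 24.3 and 11.6 FPKM in wild-type Salmonella, 6.05, 4.38 and 10.7 FPKM in knockout PBS, and 20.5, 11.2 and 11.5 FPKM in knockout Salmonella. Eno3, the muscle enolase, read 9.85, 10.2 and 8.45 FPKM in wild-type PBS, 11.3, 12.2 and 12 FPKM in wild-type Salmonella, 10.3, 9.63 and 11.1 FPKM in knockout PBS, and 13.1, 12 and 12.5 FPKM in knockout Salmonella. Both were present at 4 FPKM or more in every library, including those where Myh1, Myh2 and Myh4 had no fragment. Eno3 rose slightly in wild-type hosts (0.49, SE 0.10, adjusted p = 0.00569), and Cox6a2 overlapped (0.18, SE 0.41, adjusted p = 0.759). Mb, the oxygen store myoglobin, rose by 2.26 (SE 0.48, adjusted p = 0.00661), from 0.12 to 0.412 FPKM in wild-type PBS to 2.04, 6.25 and 1.36 FPKM in wild-type Salmonella F-1, M-1 and M-2. Pygm, the muscle glycogen phosphorylase, was at 0.41 (SE 0.43, adjusted p = 0.467).

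The other 15 members did not reach the filter, the nearest being Casq1, whose third-highest library had 0.494 FPKM, while Mybpc1 entered with 0.519 FPKM. In a fit without the filter, 6 of the 15 were higher in wild-type hosts under Salmonella at an adjusted p under 0.05: Myh2, nebulin Neb, the Z-disc genes Myoz1 and Myot, the M-band gene Myom1 and Xirp2. The share of all genes called in that fit is not given here, so nothing is read from the count. Xirp2, an actin-binding protein at sites of fibre growth and repair, went from at most 0.00225 FPKM in wild-type PBS to 0.401, 0.687 and 0.230 FPKM in wild-type Salmonella F-1, M-1 and M-2, and was at most 0.0406 FPKM in knockout hosts. Titin, the largest transcript, stayed at or below 0.0299 FPKM in every library, with 10, 7 and 14 fragments in wild-type PBS and 50, 107 and 60 in wild-type Salmonella. Mybpc2, Myom2, Pvalb, Casq1, Ryr1, Cacna1s, Ckmt2, Ttn and Myh4 were not called without the filter. With 0.5 added before the log, a level as low as that of Ttn could hardly move, so the fit cannot decide whether it changed.

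In knockout hosts no tested member passed under Salmonella: 0 of 21 rose and 0 fell, where 0.444% of all tested genes rose and 0.329% fell (limma, with 5 members at an unadjusted p under 0.05, and 0 by voom). The median log2 fold change of the 21 was 0.82, beside 0.00 over all tested genes, and 0.13 over the 19 members tested without Salmonella F-1. That library was the highest of its group for 31 of the 36 members, the exceptions being Myh1, Myh2, Tnnt1, Xirp2 and Mb, and the highest of all 12 libraries for 16. Without it Acta1 was at 0.64 (SE 0.96), against 2.13 (SE 1.24) with it, Ckm at 0.38 (SE 0.51) against 1.66 (SE 0.91), and Des at -0.18 (SE 0.35) against 0.47 (SE 0.51). The 3 Salmonella libraries lay above the 3 PBS libraries for Mylpf, Tnnc1, Actn3, Eno3 and Cox6a2, 5 of the 21 tested members, and below them for 0. Over all tested genes 13.1% lay above and 16.2% below. Of the 15 members not tested, 0 lay above and 0 below, with no share over untested genes to set beside this.

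**Figure D3:**
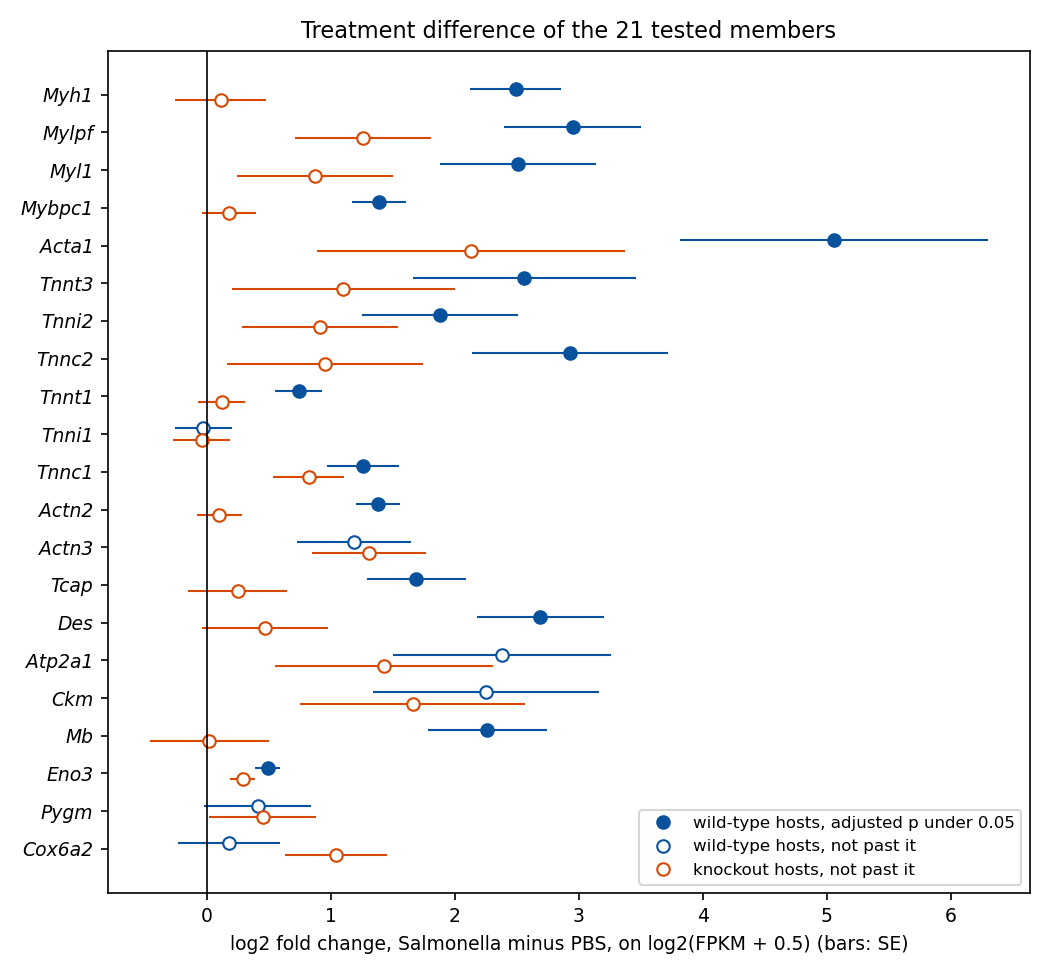
Log2 fold change of Salmonella against PBS for the 21 tested members in wild-type and knockout hosts, with the SE as bars and filled points for an adjusted p under 0.05. The 15 filled points are all from wild-type hosts and range from 0.49 for Eno3 to 5.06 for Acta1.

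The 4 libraries of high muscle level differed in which fast myosin they held. Wild-type Salmonella F-1, M-1 and M-2 had 1020, 245 and 362 fragments of Myh1, the 2X heavy chain, 137, 150 and 23 of Myh2, the 2A chain, and 57, 6 and 10 of Myh4, the 2B chain. Knockout Salmonella F-1 had 36 fragments of Myh1, 0 of Myh2 and 1083 of Myh4. As a share of the 3 genes' fragments, Myh4 was 4.7% (Wilson 95% interval 3.64 to 6.03), 1.5% (0.688 to 3.23) and 2.53% (1.38 to 4.6) in the 3 wild-type libraries and 96.8% (95.6 to 97.7) in knockout Salmonella F-1. Intervals cover counting error only, and 1 library against 3 allows no test of the groups. Myh2 took 37.4% (32.8 to 42.2) in wild-type Salmonella M-1 and 5.82% (3.91 to 8.59) in M-2, so the wild-type libraries also differed among themselves. These genes are near-identical neighbours on chromosome 11, and the counting could move fragments between them, so the shares are uncertain.

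Other members separated the same libraries. Myoglobin, a protein of oxidative fibres, was 0.12 FPKM in knockout Salmonella F-1, below the 1.36 FPKM of the lowest wild-type Salmonella library, although Acta1 was at 46.6 FPKM there. The ratio of Mb to Acta1 in FPKM was 0.00258 in that library and 0.0452, 0.156 and 0.0630 in the 3 wild-type Salmonella libraries. The ratio of Ckm to Acta1 was 0.524 there, against 0.194, 0.0906 and 0.146. Pvalb and Mybpc2, the fast form of myosin-binding protein C, were highest in the knockout library, at 5.20 and 2.15 FPKM, and Mybpc1 was 0.205 FPKM there against 0.519 to 1.12 FPKM in wild-type Salmonella. Each library's pattern rests on 1 sample.

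**Figure D4:**
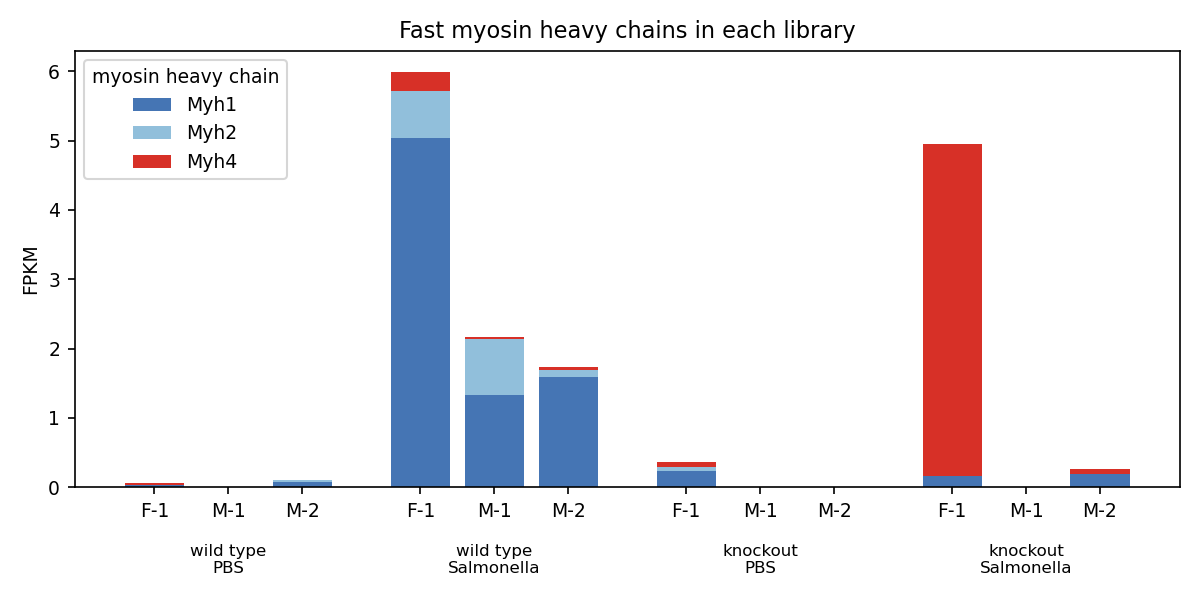
FPKM of Myh1, Myh2 and Myh4 stacked for each of the 12 libraries. Myh1 fills most of the bars of wild-type Salmonella libraries, and Myh4, at 4.79 FPKM, nearly all of the bar of knockout Salmonella F-1.

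Knockout and wild-type hosts were compared under the same treatment. Under Salmonella, 6 of 21 tested members were lower in knockout hosts and 0 higher, where 5.65% of all tested genes were lower and 3.39% higher (limma, adjusted p under 0.05). Of the 6, all but Tnnt1 passed the filter only because wild-type Salmonella libraries were high, so nothing is read from the count against that share. These were Myh1 (log2 fold change -2.29, SE 0.37, adjusted p = 0.0134), Mb (-2.26, SE 0.48, adjusted p = 0.0235), Tcap (-1.43, SE 0.40, adjusted p = 0.0474), Actn2 (-1.29, SE 0.18, adjusted p = 0.00858), Mybpc1 (-1.24, SE 0.22, adjusted p = 0.0153) and Tnnt1 (-0.68, SE 0.19, adjusted p = 0.0463). Members that were as high in knockout F-1 as in wild-type libraries did not pass, among them Acta1 (-2.64, SE 1.24, adjusted p = 0.179), Tnnt3 (-1.47, SE 0.90, adjusted p = 0.285) and Ckm (-0.41, SE 0.91, adjusted p = 0.783). On unscaled FPKM, all 3 knockout libraries lay below all 3 wild-type libraries for 5 of the 21 tested members and above for 0. Over all tested genes, 9.53% lay below and 17.5% above, shares that scaling would move. Of the 5, all but Tnnt1 passed the filter only through wild-type Salmonella, so nothing is read from this count either. Of the 15 members not tested, 6 lay below and 0 above, a count with no share over untested genes, from which nothing is read. Of the 6 calls, 0 remained in a fit on only these 2 groups. Members called numbered 0 of 16 tested without wild-type Salmonella F-1 and 0 of 17 without wild-type Salmonella M-1. Myh1, Mybpc1, Actn2 and Tcap missed the filter when either library was left out, so their calls were not retested. Mb and Tnnt1 were still tested and did not pass. Over all tested genes the lower calls also dropped, from 687 to 6 and 53. Leaving out wild-type Salmonella M-2 gave 7 of 17, with Myh1, Mybpc1 and Actn2 untested, and 2449 lower calls over all tested genes. The count was 10 of 19 without knockout F-1, 1 without knockout M-1 and 2 without knockout M-2. Beside these stood 434, 26 and 42 lower calls over all tested genes. Voom called 2 members, Mybpc1 and Actn2, and 360 lower over all tested genes.

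Under PBS 0 of 21 tested members differed between the genotypes, as did 0% of all tested genes (limma, 1 member, Cox6a2, at an unadjusted p under 0.05, and 0 by voom). Among the 21, the groups did not overlap for 1 member that was higher in knockout hosts and 1 that was lower, where 3.82% and 4.07% of all tested genes did so. Of the 15 members not tested, 2 were higher and 1 lower in this way, a count with no share over untested genes, from which nothing is read. Muscle genes were above 0 in PBS libraries of both genotypes, with the highest sum without Cox6a2 and Eno3, 24.1 FPKM, in knockout PBS F-1, and the other 5 between 11.4 and 19.3 FPKM. The difference between the treatment effects was tested as an interaction, and 0 of 21 members passed, where 0.0247% of all tested genes were called lower and 0% higher (limma, 7 members at an unadjusted p under 0.05, and 0 by voom). The smallest adjusted p-values were those of Actn2 (-1.28, SE 0.25, adjusted p = 0.177) and Myh1 (-2.38, SE 0.53, adjusted p = 0.189). A larger rise in wild-type than in knockout hosts was therefore not shown for any member. Without wild-type Salmonella M-2, 3 members were called. In that fit the genes that rose in wild-type hosts also numbered 3211, from 2259. Its interaction calls over all genes are not given here, so nothing is read from the 3.

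Other genes of the muscle fibre were read from a list of 75, of which 27 were tested, and 9 rose and 5 fell in wild-type hosts under Salmonella, where 18.6% and 17% of all tested genes did. All 9 that rose passed the filter only through wild-type Salmonella libraries, which favours a difference once tested, so their count supports nothing by itself. They were Csrp3, a Z-disc sensor of stretch (log2 fold change 2.48, SE 0.36, limma adjusted p = 0.00118), Ankrd2 (2.17), the small heat shock protein gene Hspb7 (1.95), sarcolipin Sln, an inhibitor of the calcium pump (1.65), Smpx (1.57), Pdlim3 (1.41), Art1 (1.37), Myoz2 (1.28) and Tuba8 (0.99). Smpx, a small muscle protein, had 0 fragments in all 6 PBS libraries and measured 1.05, 1.09 and 0.577 FPKM in wild-type Salmonella, 0.127 FPKM in knockout Salmonella F-1 and 0 in the other two. Myoz2, the calsarcin of slow and cardiac fibres, was at 0.521, 0.977 and 0.538 FPKM in wild-type Salmonella and at 0 in every knockout library. Those that fell were Pdlim5 (-0.56), the list's most abundant gene with a mean of 29.7 FPKM, Phka1 (-0.51), Cacna2d1 (-0.48), Jph1 (-0.46) and Pfkm (-0.35), the second in abundance with 20.1 FPKM. None of the 27 passed in knockout hosts.

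Regulators of muscle formation were mostly too low to test. Of 14 listed, 4 were tested and 0 passed (limma, 0 at an unadjusted p under 0.05, and 0 by voom), among them Pax3, at 0.09 on the log2 scale. Myog and Myf6, factors of differentiating and mature fibres, did not reach the filter: Myog was 2.41 FPKM in wild-type Salmonella M-1, 0.232 FPKM in M-2 and at most 0.0183 FPKM elsewhere, and Myf6 was 0.119, 1.49 and 0.569 FPKM in wild-type Salmonella, 0.298 FPKM in knockout Salmonella F-1 and 0 in every other library. Fragments of Myf6 were thus found in the 4 libraries of high muscle level and in no other. Of 7 genes of developing and regenerating fibres 2 were tested, and Ncam1 fell (-0.51, SE 0.10, adjusted p = 0.00364) while Tnnt2 did not pass (0.57). Of 13 genes of muscle atrophy and stress 12 were tested, with 5 higher and 1 lower in wild-type hosts, where 18.6% and 17% of all tested genes were. Of the 5, Pdk4, Sln and Fbxo32 passed the filter only through wild-type Salmonella. Cebpd, an inflammatory transcription factor, rose by 2.40, Pdk4, which slows glucose oxidation, by 1.96, Sln by 1.65, the metallothionein Mt1 by 0.91 and the ubiquitin ligase gene Fbxo32 by 0.57, and Foxo3 fell by 0.58. Mt2, the list's most abundant gene, did not pass (0.73, adjusted p = 0.0773), nor did Trim63, the other ubiquitin ligase of atrophy (0.97, adjusted p = 0.184), whose highest level, 3.32 FPKM, was in knockout Salmonella F-1.

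The sum of fat markers, of which Fabp4 was the largest part there, was high in the libraries of high muscle level. Skin markers were not high in all of these libraries. The part of other tissues in the muscle results was not tested. Of 12 adipocyte markers 6 were tested and 2 rose in wild-type hosts, where 18.6% of all tested genes rose. These were Fabp4 (log2 fold change 3.15, SE 0.60, limma adjusted p = 0.00467) and Pnpla2 (0.55, SE 0.16, adjusted p = 0.0209). The summed level of the 12 was 27.9 to 42.1 FPKM in wild-type PBS, 89.9 to 208.8 FPKM in wild-type Salmonella and 26.0 to 32.2 FPKM in knockout PBS. In knockout Salmonella it was 138.7 FPKM in F-1, the library of high muscle level, and 32.6 and 37.4 FPKM in M-1 and M-2. Adiponectin Adipoq, which defines fat cells, was 0.564, 0.0429 and 0.0219 FPKM in wild-type PBS, 0.751, 0.665 and 0.172 FPKM in wild-type Salmonella, 0, 0.0845 and 0 FPKM in knockout PBS, and 2.21, 0 and 0.0877 FPKM in knockout Salmonella. Wild-type PBS F-1, of low muscle level, thus lay within the range of the wild-type Salmonella libraries for Adipoq. Of 14 skin markers 5 were tested and 0 passed (1 at an unadjusted p under 0.05, and 0 by voom), with Krt17 at 1.21 and Sfn at -0.24. Their sum was 2.84 to 4.32 FPKM in wild-type PBS, 3.64 to 4.25 FPKM in knockout PBS and 4.01 to 6.70 FPKM in knockout Salmonella. In wild-type Salmonella M-1 and M-2 it was 3.83 and 3.99 FPKM, within the wild-type PBS range, and the top, 13.9 FPKM, was F-1. Krtdap and Lor, genes of the outer epidermis named after their values were seen, were 2.0 and 0.990 FPKM in that library and at 0 in all 3 wild-type PBS libraries.

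Nerve and connective tissue markers divided differently. Of 10 nerve and Schwann cell markers 4 were tested, and 2 rose and 1 fell in wild-type hosts by limma, where 18.6% and 17% of all tested genes did. Both that rose had passed the filter only through wild-type Salmonella. The myelin gene Mbp rose (0.91, adjusted p = 0.0195), Pmp22 fell (-0.61, adjusted p = 0.0115) and Prx did not pass (0.02). Their sum, which Pmp22 dominates, was 22.6 to 34.3 FPKM in wild-type PBS, 18.4 to 22.2 FPKM in wild-type Salmonella, 23.5 to 30.8 FPKM in knockout PBS and 16.1 to 17.6 FPKM in knockout Salmonella. Of 12 tendon and fascia fibroblast markers 8 were tested and 3 rose, where 18.6% of all tested genes did. These were Pi16 (3.07), Thbs4 (2.37) and decorin Dcn (1.27), with Lum at 0.76 (limma adjusted p = 0.0504). Wild-type Salmonella M-1, the library with Myog, also held the most Thbs4, at 31.3 FPKM against 6.08 and 7.48 FPKM in F-1 and M-2. The tendon sum was 178.0 to 217.9 FPKM in wild-type PBS, 310.0 to 511.3 FPKM in wild-type Salmonella, 163.7 to 258.5 FPKM in knockout PBS and 231.7 to 275.7 FPKM in knockout Salmonella. Knockout Salmonella F-1, with the most muscle RNA, was the lowest of its group in this sum, which Dcn and Lum dominate. Of the 3 genes that rose, Dcn was lowest there, at 144.5 FPKM against 159.6 and 185.8 FPKM in M-1 and M-2. Pi16 and Thbs4 were highest there, at 9.55 FPKM against 2.18 and 4.0 FPKM, and 6.53 FPKM against 1.56 and 4.65 FPKM. Tnmd, which defines tendon cells, was at most 0.140 FPKM.

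Vessel and inflammatory markers rose in the same group of hosts. All 10 endothelial markers were tested and 9 rose in wild-type hosts, including Cdh5 (0.67) and Pecam1 (1.19), and their sum was 34.3 to 49.4 FPKM in wild-type PBS, 86.6 to 105.6 FPKM in wild-type Salmonella, 35.2 to 51.7 FPKM in knockout PBS and 50.1 to 72.4 FPKM in knockout Salmonella. All 10 neutrophil markers rose there too, including S100a8 (9.10) and S100a9 (9.69). Over all tested genes, 18.6% rose in wild-type hosts. Among the markers that rose, the endothelial gene Tek and the neutrophil gene Camp passed the filter only through wild-type Salmonella. Voom called 9 in each of these lists. The neutrophil sum was 17.1 to 27.5 FPKM in wild-type PBS and 15.7 to 18.0 FPKM in knockout PBS. Under Salmonella it was 3077, 18810 and 2784 FPKM in wild-type F-1, M-1 and M-2, and 827.8, 541.5 and 961.1 FPKM in the knockout libraries. The order of the knockout libraries by neutrophil sum, with M-2 first, differed from that by muscle sum, with F-1 first. The smooth muscle genes that fell in wild-type hosts included Smtn (-0.83) and Pdgfrb (-0.73), beside the rise of Tagln and Mcam given with desmin. Of 7 cardiac markers 3 were tested. Nppb rose (1.48, limma adjusted p = 0.0108), as did 18.6% of all tested genes, and Myl7 did not pass (1.51, adjusted p = 0.0738).

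**Figure D5:**
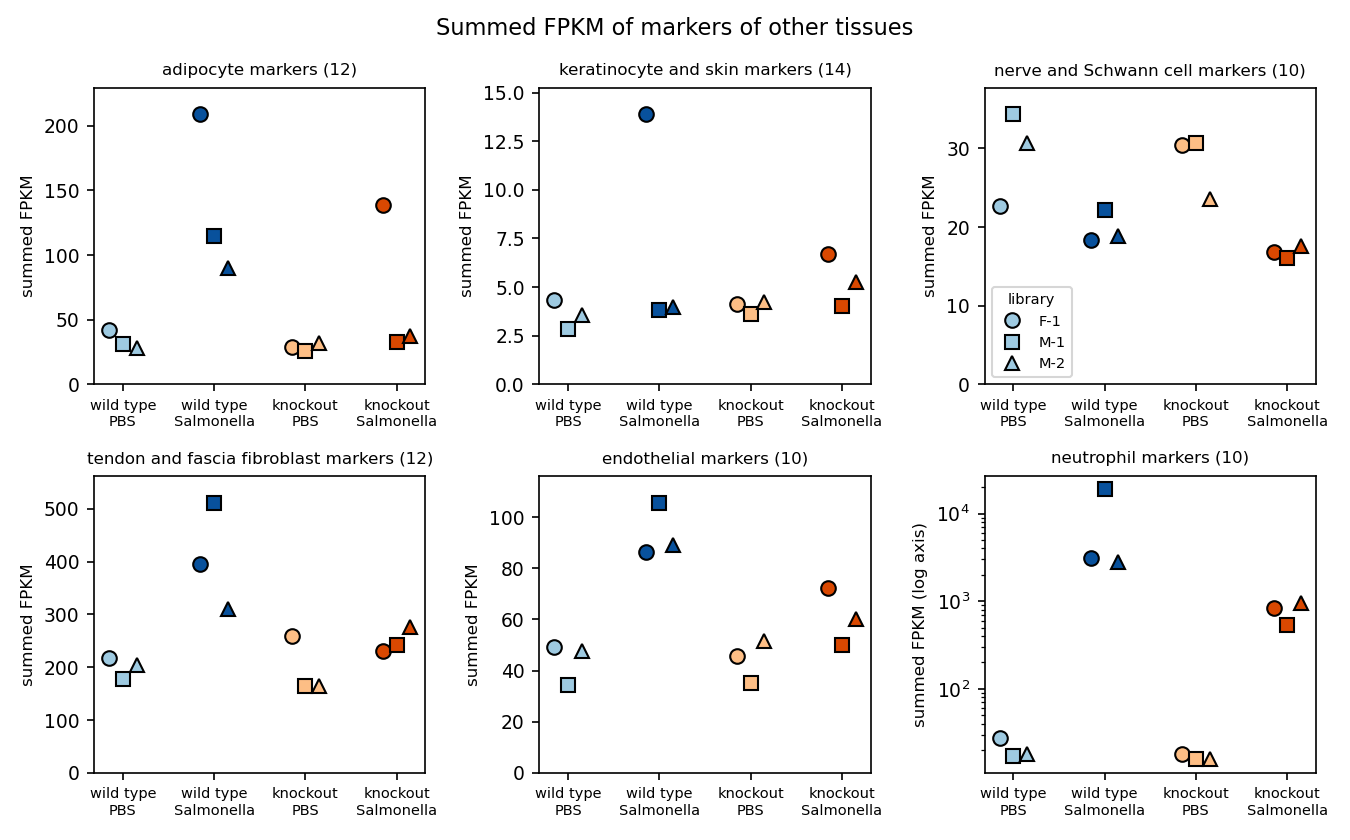
Summed FPKM of 6 marker lists in each library, with the number of genes in parentheses and a log axis for neutrophils. The adipocyte sum is high in wild-type Salmonella libraries and in knockout Salmonella F-1, at 138.7 FPKM, and the skin sum is high in wild-type Salmonella F-1, at 13.9 FPKM.

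Members followed one another closely across the 12 libraries, which share their groups, so correlations are descriptions. On log2(FPKM + 0.5), Pearson's r between a member and the mean of the other members was 0.99 for Myl1, 0.98 for Mylpf, Tnnt3 and Tnnc2, and 0.97 for Acta1. It was lower for Myh1 (0.75), Actn2 (0.78) and Mb (0.65), and these rose to 0.95, 0.97 and 0.92 over the 11 libraries without knockout Salmonella F-1. Tnni1 (0.11), Cacna1s (0.36) and Cox6a2 (0.47) were the least alike. Outside the members, the 10 tested genes most like their mean were S1pr1 (0.969), Sbno2 (0.964), Reg3g (0.961), Lims2 (0.957), Mustn1 (0.955), Ndrg2 (0.946), Pdk4 (0.943), Fabp4 (0.942), Adcy4 (0.942) and Gstm5 (0.937), over 12 libraries. S1pr1, a lipid receptor of endothelial and lymphoid cells, was 8.70 to 12.1 FPKM in wild-type Salmonella and 10.1 FPKM in knockout Salmonella F-1, and 4.17 to 6.5 FPKM in the other libraries.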

How the data were processed

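RNA of tumour tissue was turned into 12 libraries with the VAHTS Universal V6 kit, per the labels' protocols, and fastp, HISAT2 and HTSeq are named in the submitters' processing notes. The sources used here give no role, build, annotation or strand setting. Each library has its own table of FPKM, deposited by the authors, a unit inferred from the values: for 18222 of 18222 genes above 0 they were whole fragments at 1 gene length, within 0.01. A gene was tested if 3 or more libraries reached 0.5 FPKM, which 12164 genes and 21 of the 36 members did. FPKM was divided by a scaling factor, 0.5 was added, and the log2 values were fitted in limma 3.58.1 (R 4.3.3), moderated with a trend and robustly, with a mean for each group, all 12 libraries and 8 residual degrees of freedom. The factors were unweighted trimmed means of log ratios (30% and 5% trimmed). Tests were two-sided, with Benjamini-Hochberg adjustment across every tested gene. A fold change on this scale understates that of low genes. Every member was named or counted; the 3 of highest mean FPKM per role were given in every library, and 2 genes per other list, those of highest mean FPKM, were named, with the called genes of the other muscle lists and the 10 genes most like the members; values of 2 list genes are not reported here. The members and lists were chosen with earlier results of these data known. No 2 libraries of a group held identical values. The fit was tested on simulated data. Alternatives were scaling, pseudocounts of 0.1 and 1, a model with the replicate label or with the letter of the title, no filter, a fit limited to the groups compared, voom on recovered fragments, and each library left out. Promoters are RefSeq's (GRCm38.p6), searched with Python.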

Additional observations from a re-analysis of the deposited data

How the results depend on the processing

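The counts of members called kept their size within 1.5 times of the reported ones under median-of-ratios scaling, FPKM as deposited, pseudocounts of 0.1 and 1, no filter, and the title letter in the model. For members lower in knockout than wild-type hosts under Salmonella (6 reported) the exceptions were 0 with only the groups compared and 2 with voom. With each library left out in turn, members higher under Salmonella in wild-type hosts ranged from 6 to 13, and the share of all tested genes from 9.73% to 26.6%. Members lower in knockout hosts under Salmonella ranged from 0 to 10, and calls over all tested genes from 6 to 2449. Members called lower in the interaction ranged from 0 to 3, with no share over all genes given. Only 16 or 17 members passed the filter without a wild-type Salmonella library. Myh1, Mybpc1 and Actn2 missed it each time, so part of the lost calls were members left untested. The cause of the other changes was not tested. FPKM as deposited moved the median of all genes in wild-type hosts to -0.19 and the calls over all genes to 1500 higher and 3365 lower, from 2259 and 2071, while the members' median was 1.70 there. Under Salmonella the genotype calls over all genes were 834 higher and 591 lower, from 412 and 687. Leaving out Cox6a2 and Eno3, chosen after seeing the data, moved the mean summed FPKM under PBS to 15.1 in wild-type and 16.7 in knockout hosts, from 39.2 and 34.1. Whether the replicate labels pair the samples was not settled. Of 18 pairs of same-numbered libraries, 7 correlated above 0.1, and the 18 ranged from -0.33 to 0.40. Pairs with different labels were not compared. With the replicate block 17 members were higher in wild-type hosts and 7 lower in knockout hosts under Salmonella. Depth limits members with few fragments, such as Ckmt2, with at most 8 in a library, and Myot, with at most 32.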
